A study of Rattus norvegicus with 24 samples.

Results

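Egr1, Egr2, Egr3 and Egr4 make up the early growth response family of zinc finger transcription factors. They were followed in 6 brain regions of rats given the NMDA receptor channel blocker MK-801. Probes were chosen by the gene name printed in the array files, and each gene was represented by 1 probe of 60 bases, so that the family held 4 of the 41012 probes on the array and 4 of 35561 gene names, expressed sequence tags included. The Egr1 probe was printed as 10 spots on every array and the other probes as 1 spot each.

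All of these genes are immediate early genes: their transcription starts within minutes of neuronal firing and needs no new protein. In neurons, calcium entry through NMDA receptors and voltage-gated channels activates the ERK kinases and CaM kinases, which act on Elk proteins bound with SRF at CArG boxes and on CREB bound at cAMP response elements of the promoters. Egr proteins bind GC-rich sites in target genes through their zinc fingers. Egr1 is known for its part in late synaptic plasticity and memory in rodents, Egr2 for hindbrain patterning and peripheral myelination, Egr3 for muscle spindle development and Egr4 for male fertility, the last from mouse mutants.

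The sequences before the start sites are shown because the elements through which these genes are known to respond to calcium and ERK differ between members. RefSeq's table for the GRCr8 build held the promoters of Egr1, Egr2 and Egr4. The 250 bases before the start are chr18:26736828-26737077 on the plus strand for Egr1, chr20:21054442-21054691 on the minus strand for Egr2 and chr4:119607818-119608067 on the minus strand for Egr4. Capitals mark CArG boxes and the CRE half-site CGTCA.
Egr1: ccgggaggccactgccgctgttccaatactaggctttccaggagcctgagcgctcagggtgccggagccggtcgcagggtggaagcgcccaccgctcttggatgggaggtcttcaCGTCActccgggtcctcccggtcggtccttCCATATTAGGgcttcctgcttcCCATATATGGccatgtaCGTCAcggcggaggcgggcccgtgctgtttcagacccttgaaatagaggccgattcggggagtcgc
Egr2: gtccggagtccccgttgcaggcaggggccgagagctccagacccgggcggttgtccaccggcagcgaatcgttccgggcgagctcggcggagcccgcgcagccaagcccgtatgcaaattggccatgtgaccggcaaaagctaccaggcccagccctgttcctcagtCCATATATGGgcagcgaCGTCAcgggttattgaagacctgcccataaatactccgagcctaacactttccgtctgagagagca
Egr4: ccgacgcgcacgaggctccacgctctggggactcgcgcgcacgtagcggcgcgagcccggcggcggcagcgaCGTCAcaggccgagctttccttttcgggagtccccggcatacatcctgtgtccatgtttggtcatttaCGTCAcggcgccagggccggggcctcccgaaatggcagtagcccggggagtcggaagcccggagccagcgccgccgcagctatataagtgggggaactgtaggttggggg

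Egr1 and Egr2 shared an arrangement in these windows: a CArG box reading CCATATATGG from 83 to 74 bases before the start, followed by CGTCA from 66 to 62 bases before it. Egr1 held a second CArG box, CCATATTAGG, from 105 to 96 bases before its start, and a second CGTCA from 135 to 131. Egr4 held CGTCA from 178 to 174 and from 110 to 106 bases before its start, and no CArG box by the strict form searched. All motifs were searched on both strands. Of 33469 promoters of the same length, 1.5% held a CArG box and 0.0209% held 2 or more. CGTCA was present in 18.2% and present at least 2 times in 3.98%, and 0.23% (77 promoters) held both a CArG box and CGTCA. The full element TGACGTCA, which contains the half-site on each strand, was in 1.59% and the EGR site GCGNGGGCG in 4.29%, and neither matched in the 3 windows shown. A match is a run of letters and says nothing of binding in these rats.

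The study used 9 male Wistar rats, of which 3 received saline. The groups were MK-801 at 0.16 mg/kg, MK-801 at 0.08 mg/kg and saline, injected intraperitoneally, with brains taken after 40 min. The sample titles also name every group Control, next to the dose or saline, so that all rats used here share this label. The labels give an age of 9 weeks with each sample and of 10 weeks in the housing notes. Cortex, hippocampus, amygdala, ventral striatum, hypothalamus and midbrain were dissected, and each of 24 two-colour Agilent arrays compared RNA of MK-801 rats with RNA of saline rats of the same region. Every combination of region and dose was measured on 2 arrays of opposite dye, with the MK-801 RNA in Cy5 on one array and in Cy3 on the other. Neither the number of rats behind an extract nor whether the swapped arrays carried separate extracts is stated, and each pair therefore entered as 1 value. The p-values measure the spread between regions, which may come from the same animals, and not the spread between rats. Since 3 rats in all received saline, both doses were set against saline RNA of those rats, and the comparisons of the doses with saline are not independent of each other.

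Signal quality and the region labels bear on what follows. Array medians of net signal lay between 47.3 and 357 intensity units, and 56.8% to 89.7% of spots were well above background. In the saline RNA, striatal projection neuron markers stood 4.16 log2 units above their mean in other regions in the ventral striatum, with 8 of 8 highest there. Midbrain dopamine and serotonin neuron markers stood 3.03 units higher in midbrain (7 of 8 highest there), hippocampal markers 1.64 units higher in hippocampus (4 of 7) and cortical markers 1.51 units higher in cortex (3 of 6). The hypothalamic list did not stand out in the samples labelled hypothalamus (median difference -0.01, 2 of 9 highest there), which keep their label's name here. In those samples 4 of 4 thalamic markers were at their highest, with a median difference of 2.11. In the amygdala samples choroid plexus markers were 2.33 units higher (6 of 6) and meningeal markers 1.63 units higher (7 of 7). Each slide held 1 region, so a region's level cannot be told apart from its slide's.

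In saline brain, Egr1, Egr2 and Egr4 were brightest in cortex, ventral striatum and amygdala and dimmest in hypothalamus and midbrain. Levels are log2 intensities of the saline channel over 4 arrays a region, normalised across arrays, and no probe's level is set against another's. Egr1 was 15.09 ± 0.17 in cortex, 14.46 ± 0.33 in the ventral striatum, 14.14 ± 0.07 in amygdala, 12.58 ± 0.39 in hippocampus, 11.63 ± 0.14 in midbrain and 11.08 ± 0.11 in hypothalamus (SD, n = 4 each). Of neighbours in that order, the arrays of the ventral striatum and amygdala overlapped and those of all other neighbouring regions did not. The spread between the brightest and dimmest region was 4.01 log2 units.

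Egr2 covered a range of 5.35 log2 units. Its saline level was 11.97 ± 0.60 in cortex, 11.16 ± 0.51 in the ventral striatum, 11.0 ± 0.54 in amygdala, 8.89 ± 0.17 in hippocampus, 7.05 ± 0.20 in midbrain and 6.62 ± 0.14 in hypothalamus (SD, n = 4 each). The arrays of the cortex, ventral striatum and amygdala overlapped, as did those of the midbrain and hypothalamus, whereas the hippocampus was apart from both of these sets. In the midbrain 3 of 4 saline channels were well above background, and in hypothalamus 1 of 4 was, so the level in hypothalamus was near the limit of detection.

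Egr4 spanned 6.19 log2 units. It was 14.45 ± 0.20 in cortex, 14.24 ± 0.14 in the ventral striatum (n = 3, since 1 spot was marked as an outlier), 13.41 ± 0.14 in amygdala, 12.44 ± 0.67 in hippocampus, 9.10 ± 0.65 in hypothalamus and 8.26 ± 0.49 in midbrain (SD, n = 4 otherwise). The cortex and ventral striatum overlapped, and so did the hypothalamus and midbrain. Egr3 was dim in every region, from 7.51 ± 0.24 in cortex to 6.78 ± 0.06 in hypothalamus (SD, n = 4 each), and each neighbouring pair of regions overlapped.

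**Figure D1:**
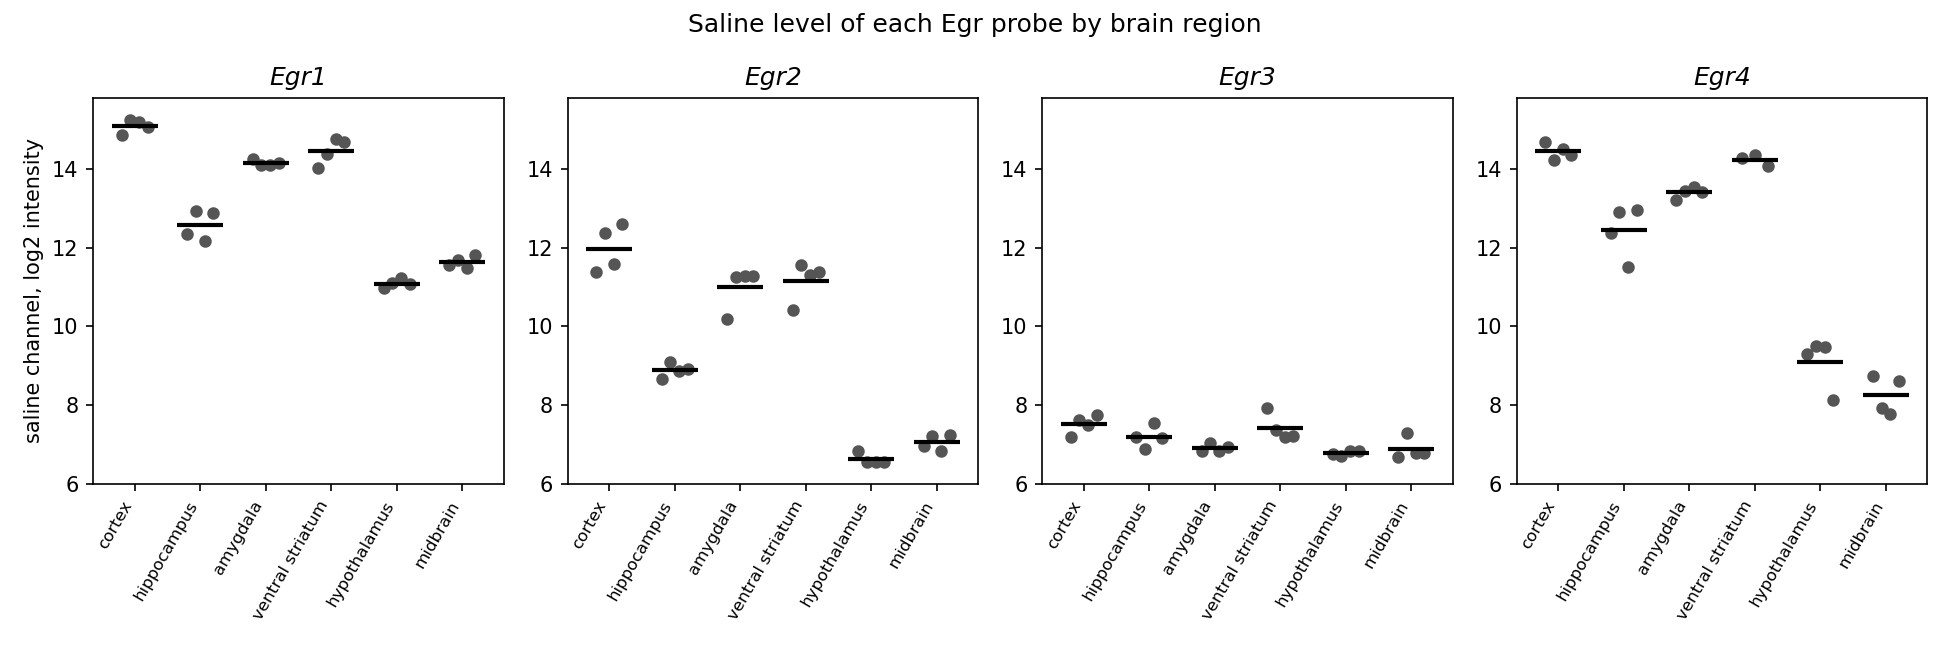
Saline level of each Egr probe (log2 intensity of the saline channel) by brain region, with 1 point per array and a line at the mean of 4 arrays (3 for Egr4 in the ventral striatum). Egr1, Egr2 and Egr4 are high in cortex, amygdala and ventral striatum and low in hypothalamus and midbrain, while Egr3 stays between 6.67 and 7.93 on all arrays.

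Per the array files, in the rn3 build, the probes lie at chr18:27373819-27373878 on the plus strand (Egr1), chr20:21897740-21897799 on the minus strand (Egr2) and chr4:120009770-120009829 on the minus strand (Egr4). Exons and untranslated regions are not stated, as rn3 annotation was not used here. The longest run of bases shared was 8 between the Egr1 and Egr4 probes.

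The design asks which transcripts differ from saline at each dose and whether the doses differ. At 0.08 mg/kg, the means of Egr1, Egr2 and Egr4 over regions fell, with pair means below 0 in every region, and Egr3 did not pass the test. Egr2 was near background in hypothalamus. The arrays of a pair lay on opposite sides of 0 for Egr1 in hippocampus and Egr4 in cortex. At 0.16 mg/kg no member passed by the same limma test. With the scanner software's processed signals no member passed at either dose. The mean log2 ratios over regions were small at both doses, and the largest fall in the family was to 0.754 of the saline level (Egr2, 0.08 mg/kg). In whole tissue, fewer cells expressing a gene and less RNA per cell cannot be told apart.

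Egr2 gave the lowest mean ratios of the family at both doses. The log2 ratios of MK-801 over saline on the array with MK-801 RNA in Cy5 and on the swapped array, both at 0.16 mg/kg, were -0.30 and -0.30 in cortex, -0.06 and -0.32 in hippocampus and -0.14 and -0.27 in amygdala. They were -0.38 and -0.64 in the ventral striatum, -0.08 and -0.09 in hypothalamus and 0.08 and 0.02 in midbrain. The high dose thus gave 10 of 12 arrays below 0, with the ventral striatum lowest and the midbrain above 0 on both arrays. The mean over 6 regions was -0.21 ± 0.06 (SE; 95% interval -0.33 to -0.08) and did not pass the test (limma, adjusted p = 0.103, lower in 5 of 6 regions). Without midbrain it was -0.26 and passed (adjusted p = 0.0223). On the arrays with MK-801 RNA in Cy3 alone it was -0.26 (adjusted p = 0.0140) and on those with it in Cy5 alone -0.15 (0.0573), in fits where dye and treatment are not separated and 28.5% and 33.9% of all probes passed. Over 21 alternatives, which include these fits, the high-dose mean stayed below 0 and passed in 6.

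For Egr2 at 0.08 mg/kg, 12 of 12 arrays were below 0. The array pairs read -0.34 and -0.47 in cortex, -0.25 and -0.54 in hippocampus and -0.36 and -0.39 in amygdala. They read -0.56 and -0.54 in the ventral striatum, -0.08 and -0.16 in hypothalamus and -0.55 and -0.64 in midbrain. Only in hypothalamus, where the probe was near background, did both arrays stay above -0.2. The mean over regions was -0.41 ± 0.05 (SE, 95% interval -0.51 to -0.30), a level of 0.754 relative to saline (limma, adjusted p = 0.000564, lower in 6 of 6 regions). Arrays were scanned on 3 days, each with 2 regions, and the mean passed within each: -0.48 on the first, -0.49 on the second and -0.26 on the third (adjusted p = 0.00751, 0.00753 and 0.0360). In the ventral striatum the pair mean of -0.55 was lower than all but 0.0824% of the 29138 probes detected there.

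The midbrain value at the low dose is a bound. MK-801 RNA was not well above background on either array, with a mean level of 6.43 log2 units against 7.03 in saline RNA, and saline was at least 1.49-fold higher. This bound sets the brighter RNA against the dimmest signal that was still above background, or against the dimmer RNA's own reading where that was larger. In the hypothalamus the levels at 0.08 mg/kg were 6.43 in MK-801 RNA and 6.55 in saline RNA. Saline RNA was well above background there on 1 of 2 arrays, so no bound is given. At 0.16 mg/kg the levels were 6.61 and 6.70, with no fold given. In the 4 regions where Egr2 was bright, a set of regions chosen after the data were seen, the mean was -0.30 at 0.16 mg/kg (limma, adjusted p = 0.0114). With the scanner software's processed signals the low-dose midbrain ratio was -1.97 and the low-dose mean -0.77, and that mean did not pass (adjusted p = 0.142).

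Egr1 was read by 10 spots an array, of which 7 to 10 remained after outliers were removed. Its array pairs at 0.16 mg/kg read 0.02 and -0.12 in cortex, 0.18 and -0.17 in hippocampus and 0.01 and -0.01 in amygdala. They read -0.21 and -0.29 in the ventral striatum, 0.12 and -0.06 in hypothalamus and -0.11 and -0.42 in midbrain. The high-dose pairs were thus split, with both arrays below 0 in the ventral striatum and midbrain and arrays on both sides of 0 in the 4 other regions. The mean was -0.09 ± 0.04 (SE, 95% interval -0.18 to 0.01) and did not pass the test (limma, adjusted p = 0.452).

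At 0.08 mg/kg, 11 of 12 Egr1 arrays were below 0. The pairs read -0.09 and -0.21 in cortex, 0.06 and -0.37 in hippocampus and -0.16 and -0.24 in amygdala. They read -0.35 and -0.41 in the ventral striatum, -0.07 and -0.33 in hypothalamus and -0.38 and -0.58 in midbrain. The midbrain and ventral striatum again gave the lowest pair means, -0.48 and -0.38. The mean over regions was -0.26 ± 0.04 (SE, 95% interval -0.35 to -0.17), or 0.835 of the saline level (limma, adjusted p = 0.00476, lower in 6 of 6 regions). Within the scan days it was -0.27, -0.34 and -0.18, none of which passed with 2 regions a day. It was -0.36 on the arrays with MK-801 RNA in Cy3 alone and -0.16 on the others. Without dye balance 35.2% and 31.1% of all probes passed in these fits, so passing in them is not read as a call on Egr1. The midbrain mean was lower than all but 0.221% of 27639 probes.

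**Figure D2:**
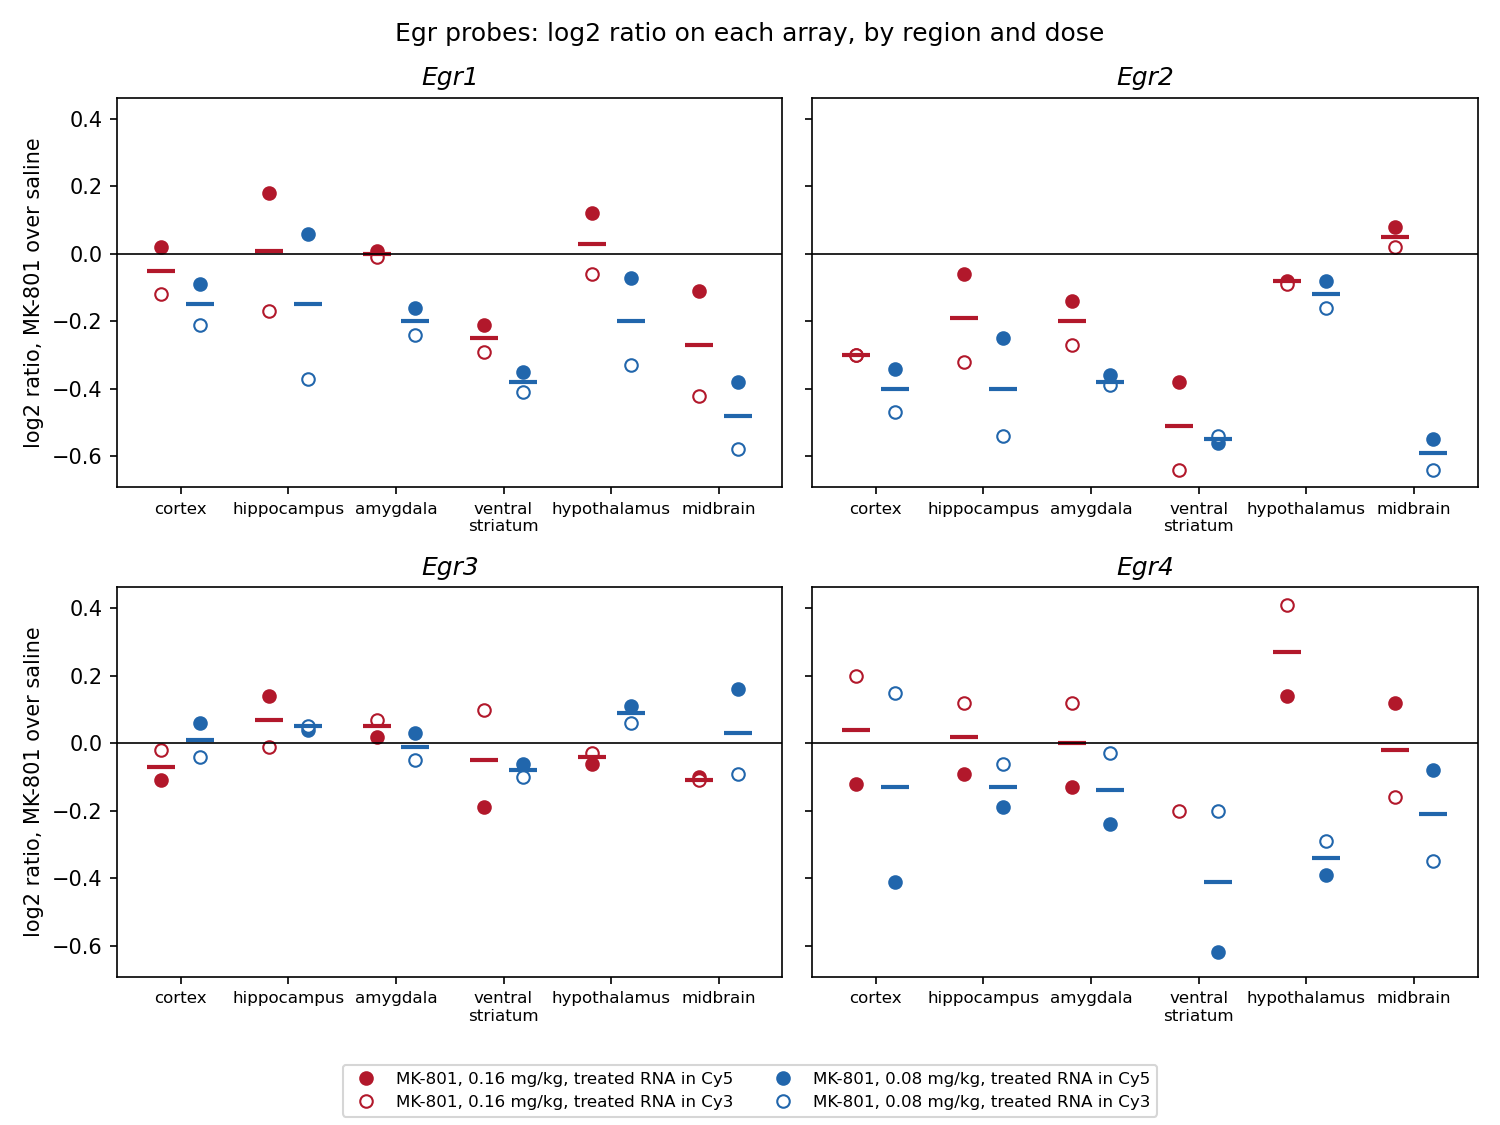
Log2 ratio of MK-801 over saline for each Egr probe by region, with 0.16 mg/kg (red) left of 0.08 mg/kg (blue), filled points for arrays with MK-801 RNA in Cy5, open points for arrays with it in Cy3, and a bar at the mean of each pair. At 0.08 mg/kg 12 of 12 Egr2 arrays and 11 of 12 Egr1 arrays lie below 0, while Egr3 scatters around 0; the lone Egr4 point in the ventral striatum at 0.16 mg/kg has no partner because its partner spot was an outlier.

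The repeated spots show how exactly 1 array reads Egr1. Over 24 arrays, 214 of 240 spots were kept, and the SD between spots of an array was 0.057 to 0.136 log2 units, with a median of 0.096. At 0.16 mg/kg, 71 of 104 spots (68.3%) were below 0, and at 0.08 mg/kg 100 of 110 (90.9%) were. Spots on 1 array share the hybridisation and are no replicates. The dye also moved Egr1. Within a pair, the array with MK-801 RNA in Cy5 read higher in 12 of 12 pairs, by 0.19 on average (SD 0.13). Averaging opposite dyes cancels that part. Without the arrays with MK-801 RNA in Cy5 the high-dose Egr1 mean was -0.18, in a fit that 28.5% of all probes passed, and without the others it was 0.00.

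**Figure D3:**
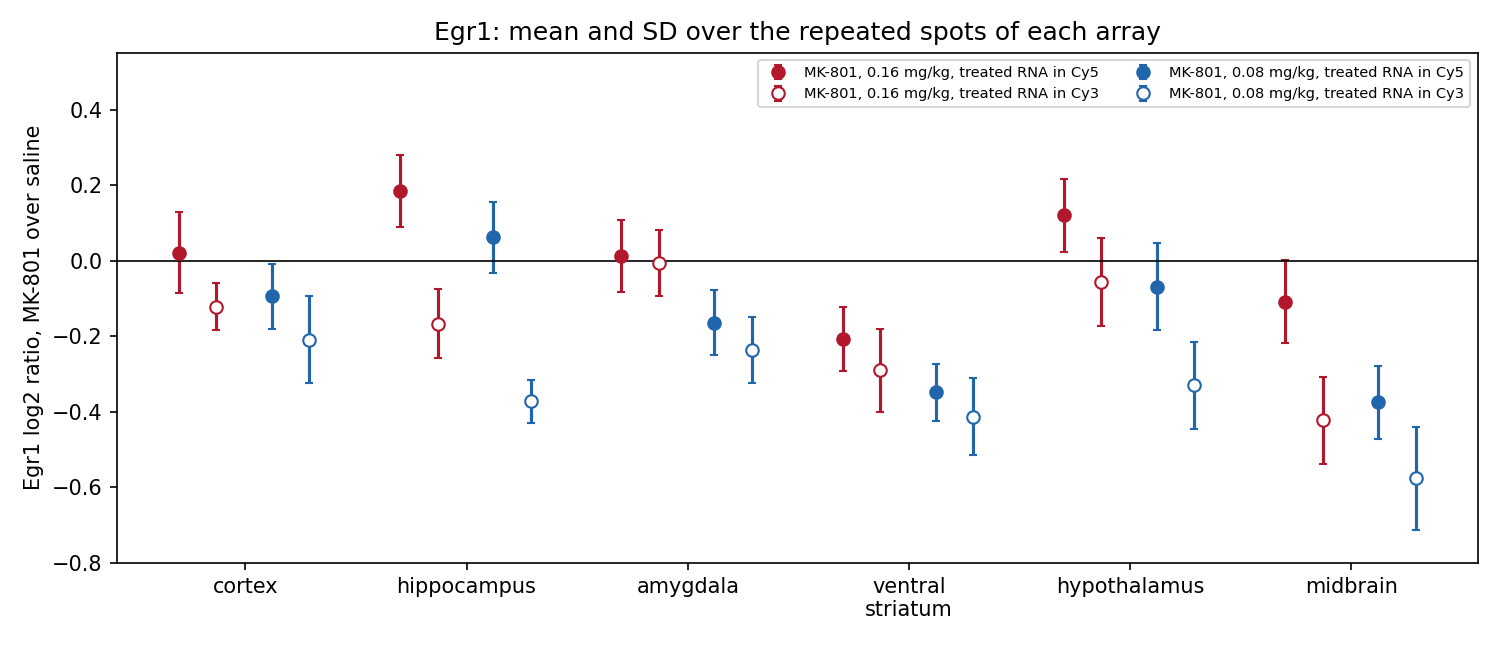
Egr1 log2 ratio of MK-801 over saline on each array, as mean and SD over the 7 to 10 spots kept, with 0.16 mg/kg (red) left of 0.08 mg/kg (blue), and MK-801 RNA in Cy5 (filled) or Cy3 (open). In each region the high-dose array lies above the low-dose array of the same dye.

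Egr4 fell at the low dose and sat around 0 at the high dose. The pairs at 0.16 mg/kg read -0.12 and 0.20 in cortex, -0.09 and 0.12 in hippocampus and -0.13 and 0.12 in amygdala. They read 0.14 and 0.41 in hypothalamus and 0.12 and -0.16 in midbrain, and the 1 array of the ventral striatum left after outlier removal read -0.20. The hypothalamus alone had both arrays above 0. The mean over the 5 regions with a full pair was 0.06 ± 0.04 (SE, 95% interval -0.03 to 0.15) and did not pass (limma, adjusted p = 0.623).

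The Egr4 pairs at 0.08 mg/kg read -0.41 and 0.15 in cortex, -0.19 and -0.06 in hippocampus and -0.24 and -0.03 in amygdala. They read -0.62 and -0.20 in the ventral striatum, -0.39 and -0.29 in hypothalamus and -0.08 and -0.35 in midbrain. Of 12 arrays 11 were below 0, the exception being the swapped cortex array. The mean over regions was -0.23 ± 0.04 (SE, 95% interval -0.31 to -0.14), or 0.855 of the saline level (limma, adjusted p = 0.00755, lower in 6 of 6 regions). Within the scan days it was -0.27, -0.17 and -0.23, none of which passed. Egr4 ran opposite to Egr1 in its dye difference, with the array carrying MK-801 RNA in Cy5 lower by 0.17 on average (SD 0.26, higher in 2 of 11 pairs). On the arrays with MK-801 RNA in Cy3 alone the low-dose mean was -0.13 (adjusted p = 0.0855), and on the others it was -0.32.

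Egr3 stayed close to the saline level on these arrays. Its 12 arrays at 0.16 mg/kg ran from -0.19 to 0.14 with a median of -0.03, 8 of them below 0. Those at 0.08 mg/kg ran from -0.10 to 0.16 with a median of 0.04, and 5 were below 0. The means were -0.02 ± 0.03 at 0.16 mg/kg (SE; limma, adjusted p = 0.813) and 0.01 ± 0.03 at 0.08 mg/kg (adjusted p = 0.900). Their 95% intervals, -0.09 to 0.04 and -0.05 to 0.07, do not reach the low-dose means of Egr1, Egr2 and Egr4, for signals treated in this way. These intervals measure the spread between regions and not between rats. The probe was dim, and an offset added in background correction draws the ratios of dim probes toward 0. With the scanner software's processed signals, which carry no such offset, the Egr3 means were 0.01 at 0.16 mg/kg and 0.07 at 0.08 mg/kg, and neither passed (adjusted p = 0.986 and 0.651). Whether so dim a probe would show a change in Egr3 RNA was not tested.

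At the low dose 3 of 4 members fell, set against 1.25% of 27369 probes tested that fell, 1.2% that rose and 2.45% that passed in either direction. That count depends on the processing. With the scanner software's processed signals Egr1, Egr2 and Egr4 stayed below 0 but did not pass (limma, adjusted p = 0.05, 0.142 and 0.0592). With the authors' value table Egr1 alone passed (adjusted p = 0.0483). For the high dose 0 of 4 passed, against 2.16% of 26173 probes (1.14% higher and 1.02% lower), while all 4 had been tested. With 4 members, a count of 0 cannot be told from that share. Median log2 ratios over all probes tested were within 0.01 of 0 in each comparison. At an unadjusted p under 0.05, 1 of 4 members (Egr2) passed at the high dose, where 12.2% of all probes did. A call at 1 dose and not at the other does not show that the doses differ, which was tested directly.

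The difference between the doses, 0.16 minus 0.08 mg/kg within a region, was positive for Egr1 in every region. It was 0.10 in cortex, 0.16 in hippocampus, 0.20 in amygdala, 0.13 in the ventral striatum, 0.23 in hypothalamus and 0.21 in midbrain. The high-dose array was above the low-dose array of the same dye in 12 of 12 pairs. The mean was 0.17 ± 0.03 (SE, 95% interval 0.11 to 0.24; limma, adjusted p = 0.0104). Egr1 was the 1 member of 4 that passed here, against 0.902% of 25616 probes that were higher, 0.66% that were lower and 1.56% in either direction. The call depends on the setting: with median centring in place of loess the difference was 0.11 (adjusted p = 0.967), and on the arrays with MK-801 RNA in Cy5 alone it was 0.17 (adjusted p = 0.142, where 0.629% of probes passed). Within the scan days it was 0.12, 0.21 and 0.20, none of which passed.

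Egr2 and Egr4 also read higher under the high dose in each region with a value, but did not pass. For Egr2 the differences were 0.04 in the ventral striatum and in hypothalamus, 0.10 in cortex, 0.18 in amygdala, 0.21 in hippocampus and 0.65 in midbrain. The mean was 0.20 ± 0.06 (SE, 95% interval 0.06 to 0.34; limma, adjusted p = 0.218), and without the midbrain it was 0.11. Egr4 differed by 0.14 in hippocampus and amygdala, 0.17 in cortex, 0.19 in midbrain and 0.61 in hypothalamus, with a mean of 0.25 ± 0.06 over 5 regions (SE, 95% interval 0.12 to 0.39; limma, adjusted p = 0.0815) and of 0.16 without hypothalamus. Each of these means leans on 1 region with a difference over 0.6. Egr3 differed by -0.04 ± 0.04 (SE, 95% interval -0.12 to 0.04; limma, adjusted p = 0.762), with values from -0.14 to 0.06.

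**Figure D4:**
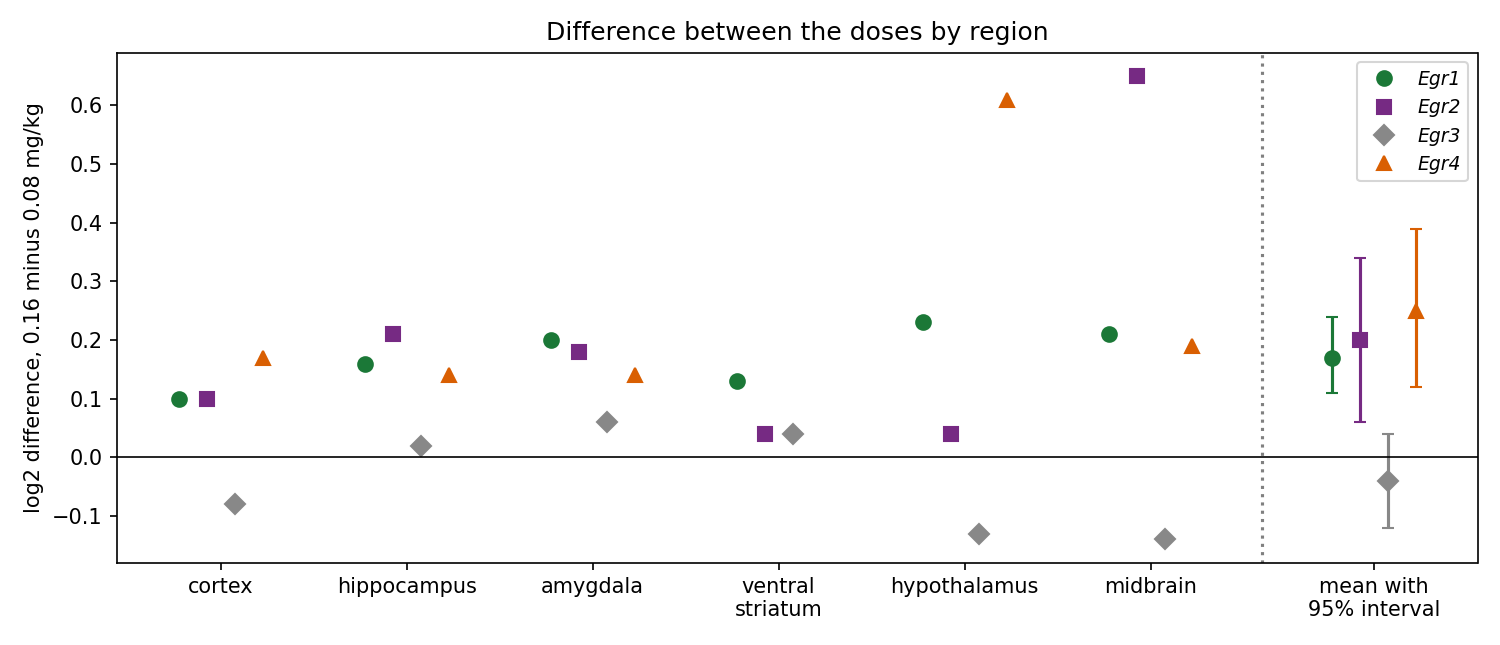
Log2 difference between the doses, 0.16 minus 0.08 mg/kg, for each Egr probe by region, with the mean over regions and its 95% interval from limma at the right. Egr1 lies between 0.10 and 0.23 in 6 of 6 regions, while Egr2 in midbrain (0.65) and Egr4 in hypothalamus (0.61) stand above the rest; Egr4 has no value in the ventral striatum.

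Blood cell markers differed between the doses in the same direction as Egr1, the member that passed there. At 0.16 mg/kg 4 of 5 rose (median log2 ratio 0.30, region medians 0.13 to 0.40), at 0.08 mg/kg 3 of 5 fell (median -0.31, region medians -0.57 to -0.12), and between the doses 5 of 5 were higher at the high dose (median 0.61). Their summed level was 68350 to 112700 intensity units at the high dose, 44000 to 61320 at the low dose and 58050 to 91430 in saline over the regions, and 0 of 5 lay at background. Alas2, an enzyme of haem synthesis in red cells, differed by 0.61 ± 0.04 between the doses (SE; limma, adjusted p = 9.75e-07). Microglial markers went the other way: 4 of 8 rose at the low dose (median 0.12) and 3 of 8 were lower at 0.16 than at 0.08 mg/kg (median -0.12). Of each other cell type list, at most 1 member passed in a comparison. Over all probes tested, 2.16% passed at 0.16 mg/kg, 2.45% at 0.08 mg/kg and 1.56% between the doses, in either direction. Meningeal markers had a median of -0.03 at 0.16 mg/kg and -0.29 at 0.08 mg/kg, with 0 of 7 passing. By region, however, their medians ran from -0.69 in hippocampus to 0.65 in midbrain at the high dose and from -0.98 in cortex to 0.14 in hypothalamus at the low dose. Choroid plexus markers ran from -1.13 in hypothalamus to 0.90 in amygdala at the high dose and from -0.98 in hippocampus to 0.22 in amygdala at the low dose. In midbrain, where Egr2 differed most between the doses, meningeal markers were 0.65 under 0.16 mg/kg and -0.29 under 0.08 mg/kg. In hypothalamus, where Egr4 did, choroid plexus markers were -1.13 under 0.16 mg/kg and 0.14 under 0.08 mg/kg, and the list for dopamine and serotonin neurons of the midbrain was -0.57 and -0.55 in that order. The part of these shifts in the Egr values was not tested.

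Among other immediate early genes, more rose than fell at both doses. At 0.16 mg/kg 18 of 42 tested rose and 1 fell (median log2 ratio 0.15), at 0.08 mg/kg 7 of 43 rose and 2 fell (median 0.04), and between the doses 17 of 42 were higher at the high dose and 0 lower (median 0.11). The median over all probes tested was -0.002 at the high dose, 0.002 at the low dose and -0.005 between the doses. Of all probes tested, 1.14% rose and 1.02% fell at the high dose, and 1.2% rose and 1.25% fell at the low dose. Between the doses 0.902% were higher and 0.66% lower. In all, 22 of these genes passed in at least 1 comparison. Some of the list read below saline: 9 of 42 at the high dose and 14 of 43 at the low dose. The 12 with the largest values among those that passed are given here, and they do not stand for the whole list.

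Ccn1, a secreted matrix protein, was 2.68 ± 0.38 above saline at 0.16 mg/kg and 1.53 ± 0.36 above it at 0.08 mg/kg (SE; limma, adjusted p = 0.00225 and 0.0456). Apold1, an endothelial immediate early gene, was 1.93 ± 0.22 and 0.99 ± 0.22 above saline at the high and low dose. Btg2, which restrains the cell cycle, was 1.29 ± 0.16 and 0.67 ± 0.16 above it. These genes rose at both doses, the high dose giving the larger log2 ratio, and so did Dusp1, a phosphatase that switches off MAP kinases (1.09 ± 0.10 and 0.59 ± 0.07), Klf2, a zinc finger factor of endothelium (0.83 ± 0.09 and 0.46 ± 0.08), and Gadd45g, a stress-response gene (0.55 ± 0.06 and 0.31 ± 0.03). All 6 also passed between the doses.

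The other named genes passed at the high dose and between the doses, but not at the low dose. Atf3, a stress-response transcription factor, was 1.46 ± 0.29 above saline at 0.16 mg/kg and 0.28 ± 0.25 at 0.08 mg/kg (SE; limma, adjusted p = 0.0205 and 0.706). Klf4, a zinc finger transcription factor, was 1.12 ± 0.13 and 0.55 ± 0.13, and Ier2 was 0.78 ± 0.11 and 0.40 ± 0.11. For these last genes the low-dose value was positive but short of the threshold (adjusted p = 0.0618 and 0.0871). Fos, a subunit of AP-1, was 0.55 ± 0.08 and 0.06 ± 0.06. Sik1, a kinase that restrains CREB coactivators, was 0.59 ± 0.09 and 0.18 ± 0.07, and Nr4a1, an orphan nuclear receptor, was 0.61 ± 0.09 over 4 regions and 0.07 ± 0.06 over 6. Nr4a3, a close relative of Nr4a1, was also lower at the low dose: it fell by 0.25 on the log2 scale (SE 0.04, adjusted p = 0.00464, lower in 6 of 6 regions) and was 0.17 ± 0.04 higher at 0.16 than at 0.08 mg/kg (adjusted p = 0.0354). It lies outside the 12 and was named after its values were seen.

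**Figure D5:**
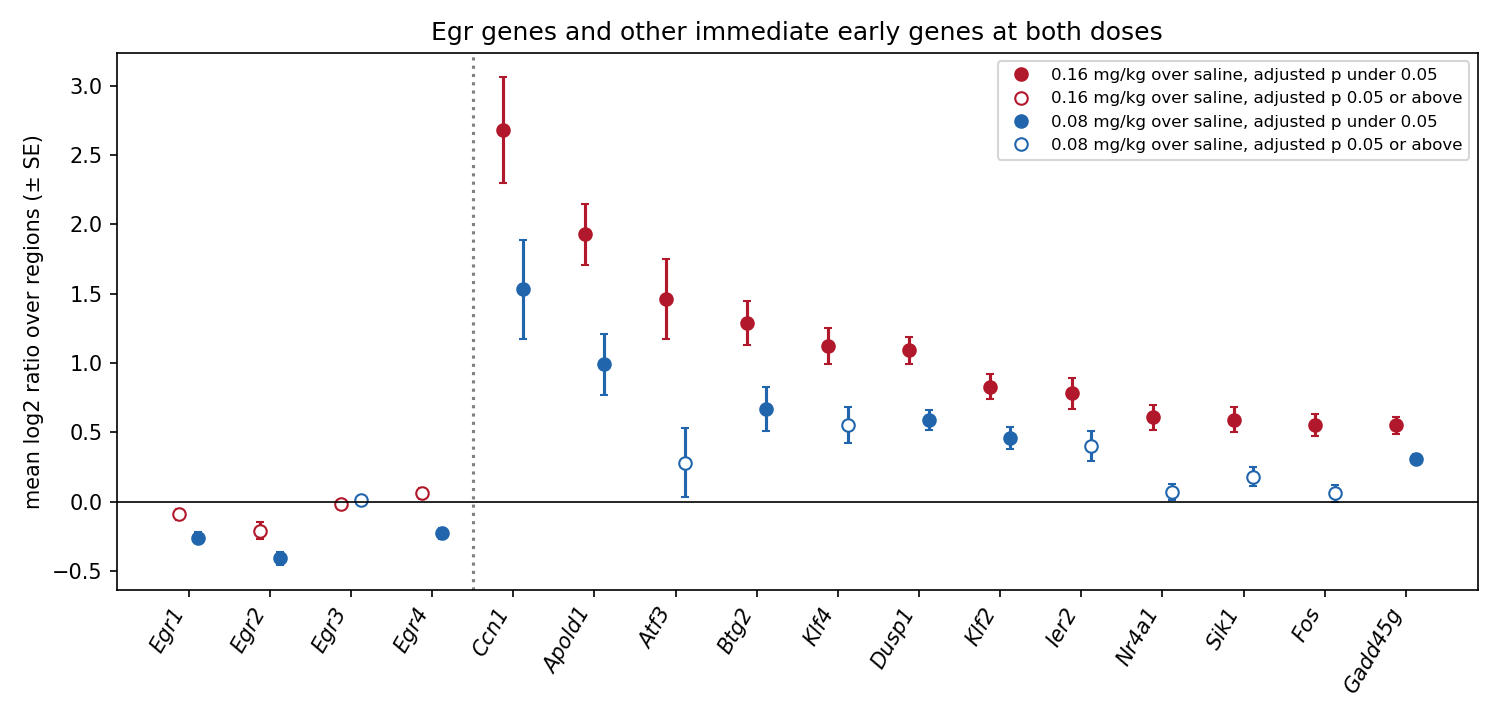
Mean log2 ratio of MK-801 over saline (± SE of the limma fit over 4 to 6 regions) for the Egr genes, left of the dotted line, and for 12 other immediate early genes, with 0.16 mg/kg (red) left of 0.08 mg/kg (blue) and filled points for an adjusted p under 0.05. The 12 were picked for the largest values among genes that passed and lie above 0, while 9 of 42 genes of their list at the high dose and 14 of 43 at the low dose lie below 0; Egr1 and Egr2 lie below 0 at both doses and Egr4 at 0.08 mg/kg.

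Of all probes tested, 2.16% passed at 0.16 mg/kg, 2.45% at 0.08 mg/kg and 1.56% between the doses. The lists of partners and upstream genes are too short to tell their counts from these shares. Of 6 co-repressors and partners of the Egr proteins, 0 passed in any comparison by limma, and at an unadjusted p under 0.05 there was 1 at 0.16 mg/kg and 0 at 0.08 mg/kg. Among them, Nab1 and Nab2, which bind Egr proteins and repress their targets, were -0.01 ± 0.03 and 0.01 ± 0.03 under the high dose and -0.05 ± 0.05 and -0.01 ± 0.04 under the low dose (SE). Of 22 tested genes on the path from calcium and ERK to SRF and CREB, 0 passed against saline at either dose (medians -0.02 for the high dose and -0.01 for the low dose), where 2 and 5 had an unadjusted p under 0.05. Over all probes tested 12.2% had one under 0.16 mg/kg and 13% under 0.08 mg/kg. Srf itself was -0.02 ± 0.02 at 0.16 mg/kg and -0.08 ± 0.02 at 0.08 mg/kg, below 0 in 6 of 6 regions at each, and did not pass (SE; limma, adjusted p = 0.785 and 0.132). Camk2a, a kinase activated by calcium, was lower at 0.16 than at 0.08 mg/kg (-0.20 ± 0.04, adjusted p = 0.0140).

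Of 21 known or proposed Egr targets, 18 were tested, and 2 of them passed against saline at each dose. Dusp1 rose, as above, and Bdnf, a growth factor of neurons, was -0.15 ± 0.03 at both doses (SE; limma, adjusted p = 0.0152 at 0.16 mg/kg and 0.0211 at 0.08 mg/kg). Between the doses Dusp1 alone passed. Over all probes tested, 2.16% passed at the high dose, 2.45% at the low dose and 1.56% between the doses. The list's median was -0.02 for the high and -0.03 for the low dose. Arc, a synaptic immediate early gene on this list, was 0.05 ± 0.04 at 0.16 mg/kg and -0.07 ± 0.04 at 0.08 mg/kg and passed in no comparison.

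Likeness was measured as Pearson's r over the 12 means of region and dose, among 9737 genes with all values (9738 and 11 means for Egr4). These points share arrays, animals and saline RNA, so r is a description. For Egr1 the closest genes were Fabp3 (r = 0.892), Aasdhppt (0.870), Cntn4 (0.865), Gadd45g (0.863) and Pim1 (0.862), where 0.1% of all genes exceeded 0.826. For Egr2 they were Sp3 (0.832), Wnt4 (0.832), Ccn3 (0.820), Col18a1 (0.817) and Pdlim3 (0.809). For Egr3 they were Sox11 (0.868), Egln3 (0.848), Hspb9 (0.825), Ywhah (0.801) and Epg5 (0.793). For Egr4 they were Matn1 (0.908), Iftap (0.896), Ahsp (0.872), Hmmr (0.868) and Cd52 (0.867). No member was among the closest genes of another. Between members r was 0.744 for Egr1 and Egr4 (11 means), 0.572 for Egr1 and Egr2 and 0.550 for Egr2 and Egr4 (11 means), against 0.214, -0.033 and -0.171 for Egr3 with Egr1, Egr2 and Egr4 in that order.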

How the data were processed

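Scanner files held spot intensity in 2 channels with local background on a linear scale, from Agilent Feature Extraction 9.5.3.1, per the file headers. They also held a log10 ratio of Cy5 over Cy3 and flags, per the file headers. In turn, the authors' deposited value table held MK-801 over saline on a log10 scale, as 100% of its values lay within 0.01 of the scanner software's log10 ratio once swapped arrays were turned. Its column medians were -0.03 for the high-dose amygdala array with MK-801 RNA in Cy5, -0.02 for the same dye in the high-dose hippocampus and ventral striatum, 0.02 for the opposite dye in hippocampus under either dose, and between -0.01 and 0.01 otherwise, so no centring was seen. Columns without a sample numbered 0. Amplification was linear, per the labels' protocols.

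Ratios were recomputed from the deposited intensity values in limma 3.58.1 under R 4.3.3: normexp with an offset of 50, loess with control spots at weight 0, outlier spots left out and saturated spots kept. Spots of a probe and then the dye-swapped pair were averaged, a pair that lost an array having no value. A probe was tested where at least 1 RNA was well above background on both arrays in at least 4 of 6 regions. The test was the mean over regions with eBayes, Benjamini-Hochberg adjusted over all probes tested, threshold 0.05. For saline levels, the mean log2 intensity of both channels was also quantile-normalised between arrays, which left the ratios unchanged. The level of the saline channel was then derived from that mean and the ratio. Lists used the brightest probe of each gene. Named genes were the members, the 5 genes most like each, and the genes that passed in each list of genes, at most 12 a list. Nab1, Nab2, Srf, Arc, Alas2 and Nr4a3 lie outside that rule and were chosen after their values were seen. The position of the Egr3 probe is not reported here. Members and lists were chosen with earlier results of these data known. Scripts were tested on simulated data, and alternatives to each choice were run (closing section). No replicate block was added, since the pair's arrays differ in dye and were averaged.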

Additional observations from a re-analysis of the deposited data

Results flagged for a closer look

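In groups of 4 to 6 values, 6 values stood apart from the others of their group by Dixon's ratio at the 95% level, of 36 groups examined. Chance marks about 1 in 20 groups at that level. Egr4 at 0.16 mg/kg in hypothalamus was 0.27 against -0.02 to 0.04 in the other regions with a pair. The difference between the doses was 0.65 for Egr2 in midbrain, where the low-dose RNA was not above background, and 0.61 for Egr4 in hypothalamus. Saline levels apart from the other arrays of their region were 10.18 for Egr2 in amygdala and 6.84 for Egr2 in hypothalamus, both on the high-dose array with MK-801 RNA in Cy5. The saline level of Egr4 in hypothalamus on the low-dose array with MK-801 RNA in Cy3 was 8.13.

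For some probes, both arrays of 1 region lay above 0 while both arrays of another lay below it. Egr2 at 0.16 mg/kg was 0.05 in midbrain and -0.30 in cortex, -0.19 in hippocampus, -0.20 in amygdala, -0.51 in the ventral striatum and -0.08 in hypothalamus. Egr3 at 0.16 mg/kg was 0.05 in amygdala, against -0.07 in cortex, -0.04 in hypothalamus and -0.11 in midbrain. Egr3 at 0.08 mg/kg was 0.05 in hippocampus and 0.09 in hypothalamus, against -0.08 in the ventral striatum. These differences between regions were not tested.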

How the results depend on the processing

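No member fit that had passed changed sign under any alternative. At 0.08 mg/kg Egr1 passed under 18 of 22 alternatives, Egr2 under 19 of 21 and Egr4 under 15 of 22. At 0.16 mg/kg Egr2 passed under 6 of 21 and Egr1 under 1 of 22, and the difference between the doses in Egr1 passed under 13 of 22. The counts against saline include 2 fits without dye balance, which are not read as calls. At 0.08 mg/kg these gave 2 passes of Egr1, 2 of Egr2 and 1 of Egr4. At 0.16 mg/kg they gave the 1 pass of Egr1 and 1 pass of Egr2. Fewer regions in a fit leave less power by construction; the cause of the other changes was not tested.

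With the scanner software's processed signals, 348 probes passed at 0.16 mg/kg, 356 at 0.08 mg/kg and 239 between the doses, against 565, 671 and 400. With the authors' value table the counts were 333, 366 and 232, and with median centring 166, 392 and 114. Under processed signals the low-dose means were -0.26 for Egr1 (adjusted p = 0.05, not below the threshold), -0.77 for Egr2 (0.142) and -0.25 for Egr4 (0.0592), and the dose difference of Egr1 was 0.18 (0.0528). Under the authors' table they were -0.77 for Egr2 (0.140), -0.25 for Egr4 (0.0523) and 0.17 for the Egr1 difference (0.0525). Median centring gave 0.11 for that difference (0.967), and arrays kept apart gave 0.17 (0.0969).

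Egr2 at 0.16 mg/kg passed with scan day as a block (-0.21, 0.0321), with arrays kept apart (-0.21, 0.0189), within scan day 1 (-0.40, 0.00126), but not day 2 (-0.08, 1.0) or 3 (-0.14, 0.440), and in the 4 bright regions alone (-0.30, 0.0114). Each scan day held 2 regions. Within days 1, 2 and 3, counts were 350, 216 and 144 for the high dose, 174, 69 and 263 for the low dose and 167, 69 and 98 between the doses. Within those days Egr1 at the low dose was -0.27, -0.34 and -0.18 (adjusted p 0.135, 0.142 and 0.250), Egr4 -0.27, -0.17 and -0.23 (0.175, 1.0 and 0.0665) and the Egr1 difference 0.12, 0.21 and 0.20 (0.629, 0.464 and 0.293). Added after seeing the data, the 4 bright regions alone gave 374, 333 and 210 probes, Egr4 at the low dose -0.20 (0.0994) and the Egr1 difference 0.15 (0.193). Keeping pairs with 1 array gave an Egr4 difference of 0.24 (0.0479).

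Leaving out 1 region, or 1 array of each pair, gave 329 to 8883 probes for the high dose, 432 to 9627 for the low dose and 162 to 356 between the doses; the highest counts came without dye balance. Over the same settings Egr1 ranged from -0.18 to 0.00 under the high dose, from -0.36 to -0.16 under the low dose and from 0.16 to 0.19 between the doses. Egr2 ranged from -0.26 to -0.14 under the high and from -0.46 to -0.36 under the low dose, and Egr4 from -0.32 to -0.13 at the low dose.

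No pairing by the numbers in the labels was possible, because they mark dye orientation and the arrays of a number were averaged with their swapped partners. The difference between the doses was paired by region. The saline range over regions was 7.75 for Egr2 and 1.89 for Egr3 with processed signals, with the order of regions unchanged. That order changed for Egr3 alone, without the quantile step and on the arrays of either dose alone. The ventral striatum was then brightest on the high-dose arrays and the midbrain dimmest on the low-dose arrays. Low signal limits Egr3 everywhere, although 3 or 4 of its 4 saline channels in each region were well above background. Signal over background also limits Egr2 in hypothalamus and midbrain.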
